A study of Homo sapiens with 3 samples.

Results

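Ribosome footprints were examined on the 9 nuclear genes that encode the F1 head and the peripheral stalk of mitochondrial ATP synthase, in HEK293T cells expressing wild-type (WT), G245S or R273H p53. The genes were taken by name from a table of 63241 genes: ATP5F1A, ATP5F1B, ATP5F1C, ATP5F1D and ATP5F1E for the head, and ATP5PO, ATP5PB, ATP5PD and ATP5PF for the stalk. All 9 were found, and all 9 were among the 19820 genes with enough counts to be tested. Against WT, the catalytic subunit gene ATP5F1B and the stalk gene ATP5PB carried more footprints in G245S cells, ATP5F1E carried fewer in both mutants, and ATP5PD carried fewer in R273H cells. The 5 changes were between 5.75% and 8.99% in size, and the other 5 genes were not called against WT in either mutant. Fold changes moved with coding length and GC content over the whole table, and with these trends removed neither fall of ATP5F1E was called, with log2 fold changes of 0.012 in G245S and -0.035 in R273H.

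ATP synthase sits in the inner mitochondrial membrane and makes ATP from ADP and phosphate. Protons that flow back into the matrix through its membrane part turn a rotor, and the rotor's central stalk (subunits gamma, delta and epsilon) drives shape changes in the head, a ring of alternating alpha and beta subunits whose catalytic sites lie mainly on beta. The peripheral stalk (OSCP, b, d and F6) ties the head to the membrane part, so that the head does not spin with the rotor. All of these proteins are made in the cytosol and imported.

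Ribosome profiling (Ribo-seq) counts mRNA fragments that ribosomes protect from nuclease, so a gene's count reflects both how much of its mRNA a cell holds and how densely ribosomes occupy it. HEK293T cells derive from human embryonic kidney and express the large T antigen of SV40, to which p53 binds, and all 3 groups share this background. G245S and R273H are recurrent tumor mutations in the DNA-binding domain of p53, and the comparison with WT asks whether ribosome occupancy differs in cells that express them. Each group had 3 dishes of cells, whose fragments carried barcoded linkers and were pooled within the group at reverse transcription, so a difference between groups cannot be told apart from a difference between pools. Groups follow the sample titles, since the labels give the cells as stable in one place and as transiently transfected in another, and name the wt construct in the mutants' treatment. Per the study's methods, stable lines were made by lentiviral delivery and kept in puromycin, and whether a line is 1 clone is not given in the sources used here. Cells had 2 min of cycloheximide, which arrests elongating cytosolic ribosomes, and footprints came from the monosome fraction after micrococcal nuclease.

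Libraries held 18.7 to 24.6 M expected counts, and the mean total was 19.3 ± 0.655 M in WT, 20.0 ± 1.47 M in G245S and 24.1 ± 0.726 M in R273H (SD, n = 3 dishes each). Values are given as CPM, a gene's count divided by the total of its library on a common scale. For CPM that total was taken over the genes tested and multiplied by a TMM factor, edgeR's scaling of each library. Shares of all counts use the unscaled total. There was no replicate beyond these dishes, so errors and p-values measure the spread between dishes of a pool. Dish 3 stood apart from dishes 1 and 2 in each group: the chi-square per degree of freedom between dishes of a group was 1.48 to 1.56 without dish 3 and 1.88 to 2.62 with it. The p53 targets MDM2 and CDKN1A served as a check of the labels, and both were far lower in the mutants. MDM2 had log2 fold changes of -3.48 (G245S) and -3.49 (R273H), and CDKN1A of -1.92 and -2.14. Of the marker genes, KRT18 (110 to 116 CPM), NEFM (262 to 277 CPM) and VIM (884 to 983 CPM) were present, as were KRT8 (33.9 in WT, 35.3 in G245S and 43.4 in R273H) and NEFL (122, 98.3 and 103 CPM), while the epithelial genes EPCAM (3.91 to 4.88 CPM) and CDH1 (6.04 to 7.21 CPM) were low. CD3E was at 0 in all groups, ALB, PECAM1 and PTPRC had group means under 0.1 CPM, and the muscle gene DES had 0.599 to 0.706 CPM, but the fibroblast gene COL1A1 had 32.5 CPM in WT, 28.2 in G245S and 27.5 in R273H. Among these markers, VIM was called higher in G245S (log2 fold change 0.15), KRT8 higher in R273H (0.36), and NEFL (-0.32 and -0.24) and COL1A1 (-0.21 and -0.24) lower in both mutants. Counts are relative to the library total, and no spike-in or matched RNA-seq was used here.

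Sequence bears on these genes in 2 ways, the shared nucleotide-binding fold of the head and the reach of pseudogenes. Alpha and beta are related proteins that both bind nucleotides through a P-loop (Walker A motif), and the codons of that loop are shown because the pair is compared throughout. The coding sequences come from GENCODE v44 on GRCh38, positions are counted from 1 at the A of the start codon, and capitals mark the P-loop codons, which are codons 212 to 219 of ATP5F1A and 206 to 213 of ATP5F1B.
ATP5F1A, positions 607 to 684: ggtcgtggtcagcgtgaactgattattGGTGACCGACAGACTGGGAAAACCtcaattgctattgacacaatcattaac
ATP5F1B, positions 589 to 666: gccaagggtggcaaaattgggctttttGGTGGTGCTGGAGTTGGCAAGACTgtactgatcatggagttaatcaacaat

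Epsilon has the shortest coding sequence of the 9, at 156 nt, and a processed pseudogene, ATP5F1EP2 on chromosome 13 (chr13:27945260-27945415), matches it at 96.2% of positions. Both are printed in full, since short footprints are shared between them. Capitals mark the 6 positions that differ (C65T, T105C, G106A, G108A, G122A and A125G, with the base of ATP5F1E first).
ATP5F1E: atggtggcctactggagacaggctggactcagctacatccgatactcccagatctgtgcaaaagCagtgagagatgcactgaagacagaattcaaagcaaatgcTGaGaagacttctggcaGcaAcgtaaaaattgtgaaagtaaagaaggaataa
ATP5F1EP2: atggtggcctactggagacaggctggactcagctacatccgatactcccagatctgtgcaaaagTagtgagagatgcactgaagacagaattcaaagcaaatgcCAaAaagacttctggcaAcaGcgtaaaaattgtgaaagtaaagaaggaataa
The first 64 bases are the same in both, and 37.0% of the 30-nt windows of the ATP5F1E coding sequence (47 of 127) also occur in ATP5F1EP2. A footprint from such a window fits either gene, and the deposited counts shared such reads out by an estimate.

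As a share of all counts, the 9 genes together took 0.464% ± 0.0037 in WT, 0.473% ± 0.0011 in G245S and 0.468% ± 0.0044 in R273H (SD, n = 3 dishes each). The lowest G245S dish (0.472%) lay above the highest WT dish (0.469%), and the R273H dishes (0.464% to 0.473%) spanned both groups. The 5 head genes stood at 0.320% in WT, 0.331% in G245S and 0.325% in R273H, while the 4 stalk genes stayed between 0.142% and 0.144% in the 3 groups. Of all 19820 genes, G245S against WT called 24.7%, 12.1% lower and 12.6% higher, at an adjusted p under 0.05 from edgeR's quasi-likelihood test with Benjamini-Hochberg adjustment over all genes tested. In R273H against WT, 28.8% were called, 14.6% lower and 14.2% higher. Of the 9 genes, 3 were called in G245S (2 higher, 1 lower) and 2 in R273H (both lower). Without WT dish 3 these counts were 5 and 4, while the shares of all genes given here are from the fit with all dishes. All 9 lie in the highest of 10 bins of genes by mean count, in which 53.9% were called in G245S and 59.3% in R273H, and 3 or 2 of 9 is no higher a share than that. Their median log2 fold change was 0.037 (G245S) and -0.025 (R273H), beside medians of 0.033 and 0.016 in that bin.

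**Figure D1:**
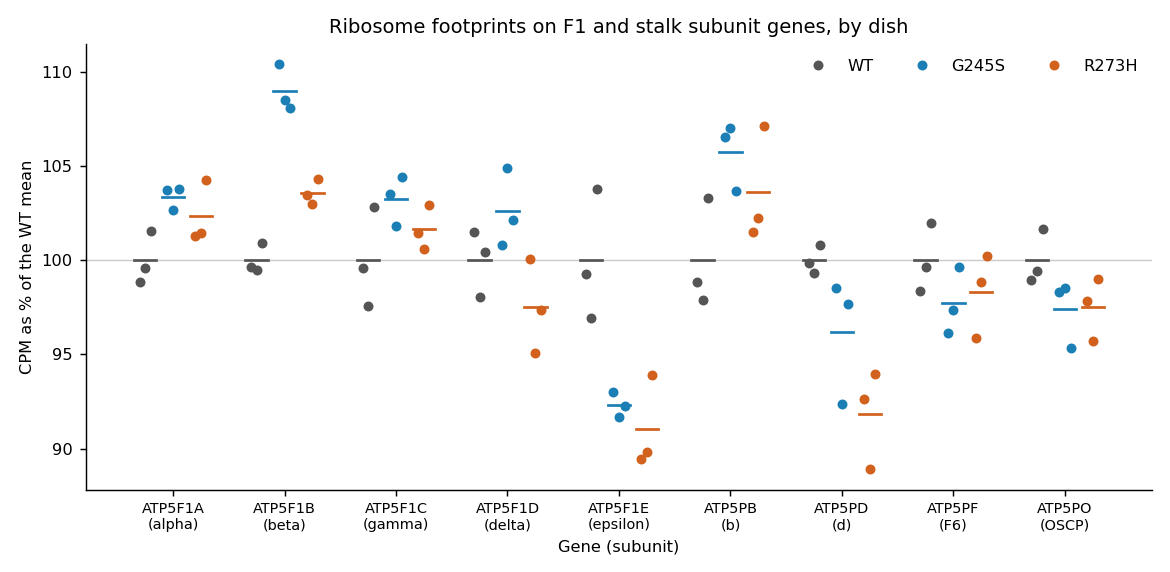
CPM of each gene in each dish as a percent of the WT mean (points, dishes 1 to 3 from left to right within a group; short lines, group means; gray WT, blue G245S, orange R273H). The vertical axis does not start at 0. ATP5F1B in G245S stands highest, and ATP5F1E in both mutants and ATP5PD in R273H stand lowest with no dish reaching the WT range.

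Beta, the subunit that carries the catalytic sites, is encoded by ATP5F1B on chromosome 12 (chr12:56638175-56645984, minus strand, 10 exons). Its CPM in dishes 1 to 3 was 1223, 1221 and 1239 in WT, 1355, 1332 and 1327 in G245S, and 1270, 1264 and 1280 in R273H. The groups did not overlap, with WT lowest, R273H between and G245S highest. Groups of dishes that do not overlap were common among all genes tested, at 37.4% for G245S and WT, 41.2% for R273H and WT, and 21.5% for the mutants. In G245S, ATP5F1B rose by 0.12 on the log2 scale (SE 0.021, adjusted p = 4.3e-05), or 8.99%. The call held in all 20 alternatives, over which the log2 fold change ran from 0.12 to 0.14. In R273H the log2 fold change was 0.051 (95% interval 0.0084 to 0.093, adjusted p = 0.066), and 7 of 20 alternatives called it. Of the 9 genes, this one shares the least sequence with others where it shares any, with 1.60% of its 30-nt windows found in another annotated gene.

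Alpha, the partner of beta in the ring, is encoded by ATP5F1A on chromosome 18 (chr18:46080248-46104334, minus strand, 12 exons). Its CPM was 1091, 1099 and 1121 in WT, 1145, 1133 and 1145 in G245S, and 1118, 1120 and 1151 in R273H. The G245S dishes lay above all WT dishes, and the R273H dishes overlapped the WT range. Neither difference was called, with log2 fold changes of 0.048 (95% interval 0.0039 to 0.092, adjusted p = 0.11) in G245S and 0.033 (-0.011 to 0.077, adjusted p = 0.26) in R273H. The interval in G245S leaves room for a rise as large as 0.092, and 4 of 20 alternatives called it.

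Gamma, the shaft of the central stalk, is encoded by ATP5F1C on chromosome 10 (chr10:7788147-7807815, plus strand, 10 exons). It stood at 473, 464 and 489 CPM in WT, 492, 484 and 497 in G245S, and 482, 478 and 489 in R273H, with overlap between all groups. The log2 fold changes were 0.046 (95% interval -0.0037 to 0.096, adjusted p = 0.18) in G245S and 0.024 (-0.026 to 0.073, adjusted p = 0.51) in R273H.

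Delta joins gamma and epsilon at the foot of the central stalk and is encoded by ATP5F1D on chromosome 19 (chr19:1241746-1244825, plus strand, 4 exons). Its coding sequence is 68.0% G or C, against 42.8% to 51.3% for the other 8, and it is the one gene of the 9 with no annotated pseudogene and no shared 30-nt window. CPM was 149, 144 and 147 in WT, 148, 154 and 150 in G245S, and 147, 139 and 143 in R273H. Each mutant overlapped WT, but the mutants did not overlap each other. The log2 fold change was 0.037 in G245S (95% interval -0.026 to 0.10, adjusted p = 0.42) and -0.037 in R273H (-0.099 to 0.025, adjusted p = 0.40).

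Epsilon, a small protein that stabilizes the foot of the central stalk, is encoded by ATP5F1E on chromosome 20 (chr20:59025475-59032345, minus strand, 3 exons), whose coding sequence is shown above. Its CPM was 237, 231 and 248 in WT, 222, 219 and 220 in G245S, and 213, 214 and 224 in R273H. All 6 mutant dishes lay below all 3 WT dishes, and the mutants overlapped each other. ATP5F1E fell by 7.66% in G245S (log2 fold change -0.12, SE 0.029, adjusted p = 0.0041) and fell by 8.95% in R273H (-0.14, SE 0.029, adjusted p = 0.00065). Both calls held in 19 of 20 alternatives and were lost in the remaining one, in which trends with coding length and GC content were removed from each library. There G245S had a log2 fold change of 0.012 (adjusted p = 0.75), with the direction turned, and R273H one of -0.035 (adjusted p = 0.26).

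OSCP, which joins the stalk to the crown of the head, is encoded by ATP5PO on chromosome 21 (chr21:33903453-33915814, minus strand, 7 exons). It had 443, 445 and 455 CPM in WT, 440, 441 and 427 in G245S, and 438, 429 and 443 in R273H. The G245S dishes lay just below WT, and the R273H dishes overlapped it. The log2 fold changes were -0.038 (95% interval -0.088 to 0.012, adjusted p = 0.28) and -0.036 (-0.086 to 0.013, adjusted p = 0.28), and no alternative called either.

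Subunit b, the long helix that anchors the stalk in the membrane, is encoded by ATP5PB on chromosome 1 (chr1:111448864-111462773, plus strand, 7 exons). It had 518, 513 and 542 CPM in WT, 559, 561 and 544 in G245S, and 532, 536 and 562 in R273H. The lowest G245S dish (544 CPM) lay just above the highest WT dish (542 CPM), and R273H overlapped both groups. ATP5PB rose by 0.081 on the log2 scale in G245S (SE 0.026, adjusted p = 0.023), or 5.75%. This call was the least stable of the 5, held in 16 of 20 alternatives and lost without WT dish 1, WT dish 2, G245S dish 1 or G245S dish 2 (adjusted p up to 0.13). In R273H the log2 fold change was 0.051 (95% interval -0.0020 to 0.10, adjusted p = 0.15).

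Subunit d, which packs against b along the stalk, is encoded by ATP5PD on chromosome 17 (chr17:75038863-75046985, minus strand, 6 exons). It had 221, 219 and 223 CPM in WT, 218, 204 and 216 in G245S, and 205, 196 and 208 in R273H. Every mutant dish lay below every WT dish. ATP5PD fell by 8.18% in R273H (log2 fold change -0.12, SE 0.029, adjusted p = 0.0020), a call that held in all 20 alternatives (-0.14 to -0.079). In G245S the log2 fold change was -0.056 (95% interval -0.12 to 0.0047, adjusted p = 0.18), and no alternative called it.

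F6, a small stalk protein named as coupling factor 6, is encoded by ATP5PF on chromosome 21 (chr21:25716503-25735673, minus strand, 4 exons). It had 238, 241 and 247 CPM in WT, 233, 236 and 241 in G245S, and 232, 239 and 243 in R273H, and the 3 groups overlapped. The log2 fold changes were -0.033 (95% interval -0.089 to 0.024, adjusted p = 0.43) and -0.025 (-0.080 to 0.031, adjusted p = 0.54).

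Between the mutants, edgeR called 2.59% of all genes tested and 0 of the 9, while 3 of the 9 had an unadjusted p under 0.05 (15.7% of all genes did) and DESeq2's Wald test called 1. All 3 were higher in G245S than in R273H. ATP5F1B had a log2 fold change of 0.073 (95% interval 0.031 to 0.12, adjusted p = 0.0505), ATP5F1D 0.074 (0.012 to 0.14, adjusted p = 0.21) and ATP5PD 0.067 (0.0071 to 0.13, adjusted p = 0.25). ATP5F1B sat just outside the threshold and was called in 9 of 20 alternatives, DESeq2 among them, with an adjusted p between 0.00050 and 0.23. For ATP5F1E the difference between the mutants was 0.020 (95% interval -0.039 to 0.079, adjusted p = 0.80), so its fall did not differ detectably between them.

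**Figure D2:**
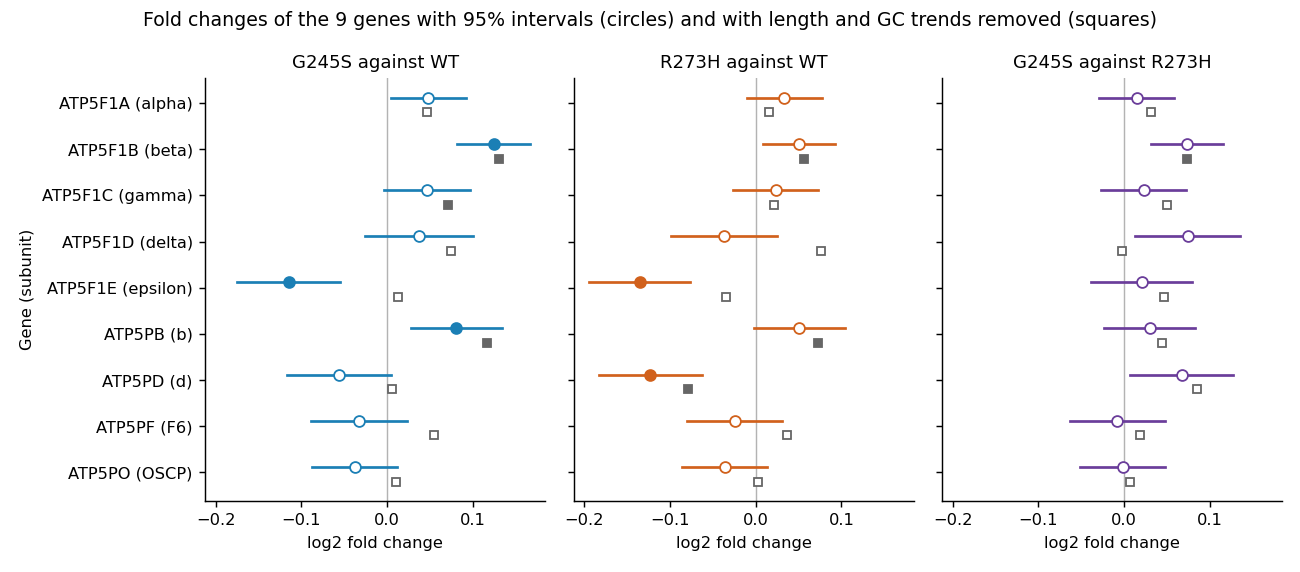
Log2 fold changes of the 9 genes for the 3 contrasts. Circles with bars are the fit with its 95% intervals, squares are values after trends with coding length and GC content were removed, and filled symbols had an adjusted p under 0.05. ATP5F1E moves from a called fall to near 0 once the trends are removed, whereas ATP5F1B in G245S and ATP5PD in R273H are called in both.

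Levels can be compared between genes only per length. The region over which the deposited counts were taken is not given in the sources used here, so density per coding length would be too high where counts include footprints outside the coding sequence, and ATP5F1E has the shortest coding sequence to divide by. Footprint density, in CPM per kb of coding sequence, spanned 5.29-fold among the 9 in WT. ATP5F1E was highest at 1529 ± 53.2, followed by ATP5F1B at 772 ± 6.02, ATP5PF at 741 ± 13.5, ATP5PO at 697 ± 10.2, ATP5PB at 680 ± 19.7, ATP5F1A at 664 ± 9.26, ATP5F1C at 530 ± 14.0, ATP5PD at 454 ± 3.36 and ATP5F1D at 289 ± 5.09 (SD, n = 3 dishes each). In this order the dish ranges of ATP5PO and ATP5PB overlapped, as did those of ATP5PB and ATP5F1A, and the other neighbours did not overlap. ATP5PF, ATP5PO, ATP5PB and both ring genes thus stood in a narrow band, while gamma, d and delta stood below it and epsilon far above it. The same 2 genes led and the same 3 came last in both mutants, where ATP5F1E was at 1412 ± 10.1 in G245S and 1393 ± 38.0 in R273H. The ring holds 3 copies each of alpha and beta for 1 of every other subunit. Divided by copies, ATP5F1B (257 ± 2.01 in WT) and ATP5F1A (221 ± 3.09) became the lowest of the 9, below ATP5F1D (289 ± 5.09).

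Alpha and beta enter the ring in equal numbers, and the ratio of their footprint densities was below 1 in every dish. ATP5F1A over ATP5F1B was 0.853, 0.861 and 0.866 in WT, 0.808, 0.814 and 0.826 in G245S, and 0.842, 0.848 and 0.860 in R273H. The G245S dishes lay below all others, and those of R273H overlapped WT. This ratio was not tested. Densities rest on the annotated coding length, and ATP5PF alone has a longer annotated coding region (360 nt in place of 327), with which it would stand at rank 5 in place of 3 in WT, at 673 CPM per kb.

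**Figure D3:**
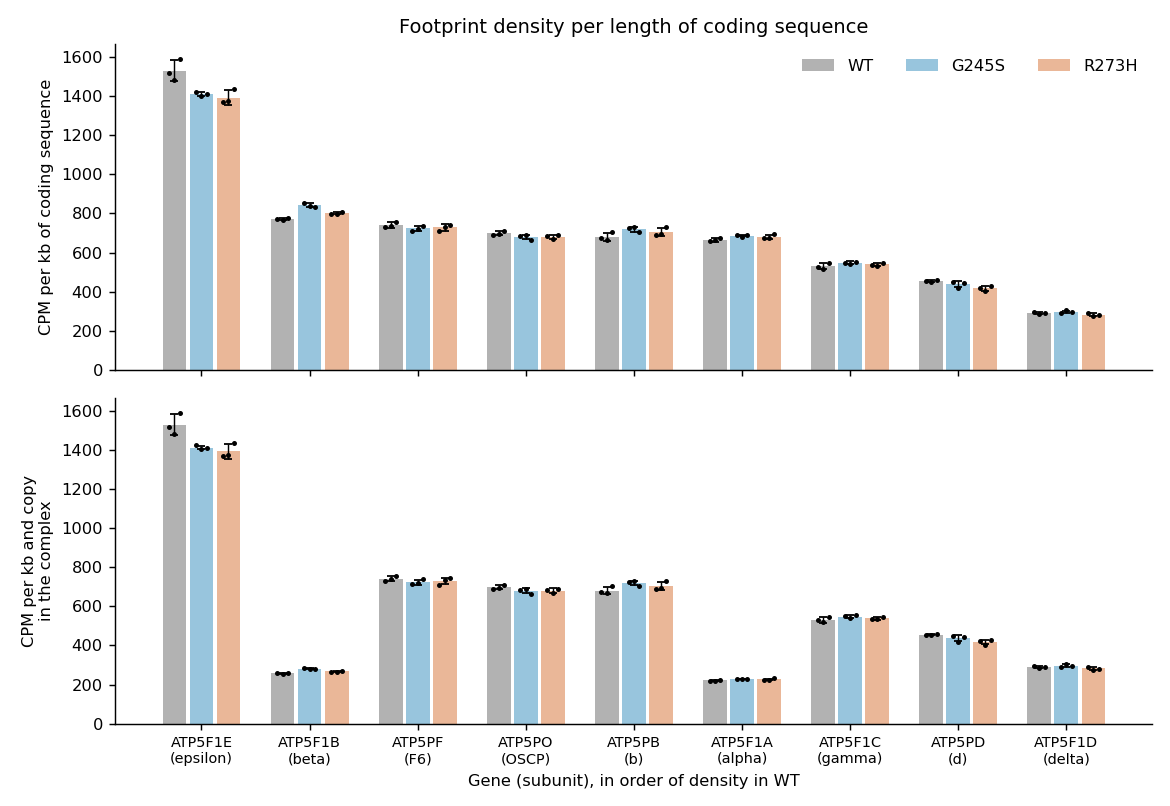
Footprint density of each gene in CPM per kb of coding sequence (top) and divided by the copies of the subunit in one complex (bottom). Bars are group means, error bars the SD and points the 3 dishes. ATP5F1E stands above all others in each group, and ATP5F1B and ATP5F1A drop to the lowest places once copies are counted.

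Coding length moved with these fold changes. Over 10886 protein-coding genes, Spearman's rho between log2 fold change and coding length was 0.147 in G245S and 0.208 in R273H against WT, as a description across genes measured in the same libraries. Split into 10 bins of equal size by length, the shortest bin (30 to 519 nt) had medians of -0.067 (G245S) and -0.089 (R273H) on the log2 scale, and epsilon (156 nt), F6 (327 nt), d (486 nt) and delta (507 nt) all lie in it. ATP5F1E (-0.12 and -0.14) and, in R273H, ATP5PD (-0.12) lay below these medians, while ATP5F1D (0.037 and -0.037) and ATP5PF (-0.033 and -0.025) lay above them. ATP5F1A (1662 nt) and ATP5F1B (1590 nt) lie in bin 6, with medians of 0.012 and 0.010, and ATP5PB (771 nt) and ATP5F1C (897 nt) in bin 3, with medians of -0.016 and -0.031. All 4 of these genes were above their bin's median in both mutants, ATP5F1A at 0.048 and 0.033 and ATP5F1C at 0.046 and 0.024. For GC content rho was 0.035 in G245S against WT, -0.18 in R273H against WT and 0.43 between the mutants. With both trends removed, the genes called in G245S were ATP5F1B, ATP5F1C (0.071, adjusted p = 0.0068) and ATP5PB (0.12, adjusted p = 0.00018), and in R273H ATP5F1B (0.056, adjusted p = 0.017), ATP5PB (0.072, adjusted p = 0.013) and ATP5PD (-0.079, adjusted p = 0.012). Between the mutants, the difference of GC-rich ATP5F1D went from 0.074 to -0.0023. What gives rise to the trends was not tested.

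**Figure D4:**
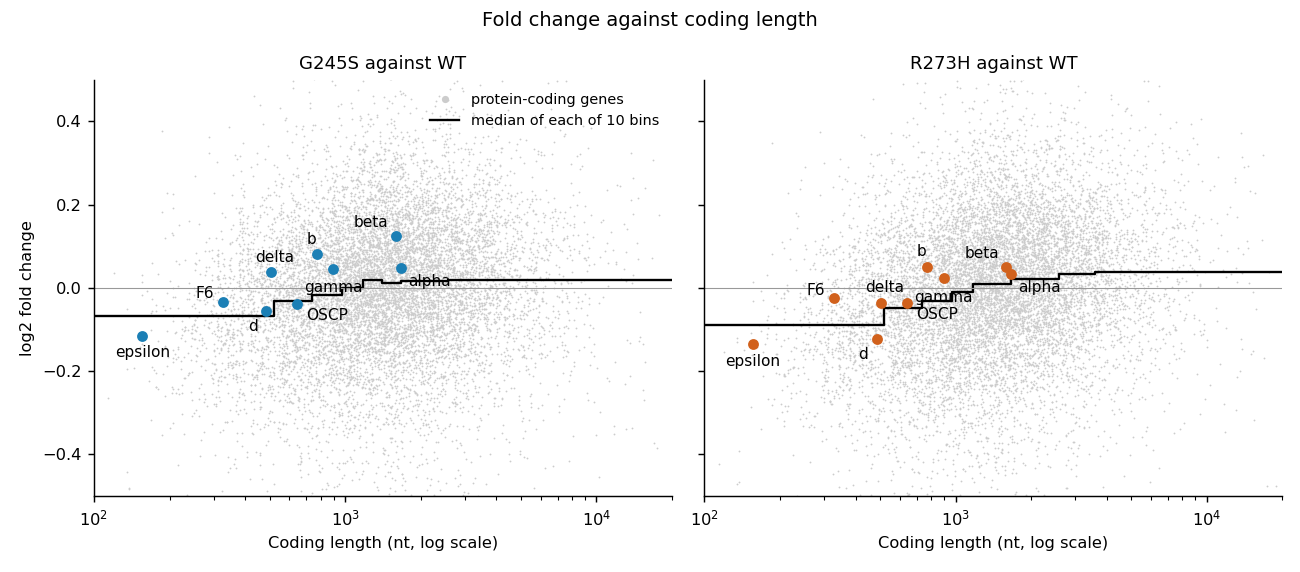
Log2 fold change against coding length (log scale) for each mutant against WT. Gray points are protein-coding genes, of which 300 (G245S) and 298 (R273H) of 10886 lie outside the axes, the black steps are the median of each of 10 bins by length, and colored points are the 9 genes by subunit name. The steps climb from -0.067 (G245S) and -0.089 (R273H) in the shortest bin, and alpha, beta, gamma, delta, b and F6 lie above them in both panels.

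Pseudogenes and overlapping genes set how certain each count is. GENCODE lists 25 pseudogenes named after the 9 genes, 7 for ATP5F1A and 8 for ATP5PB. Their summed counts were 15.4% of the ATP5F1E count in WT, 14.4% in G245S and 14.1% in R273H, nearly all from ATP5F1EP2, and at most 3.27% for any other gene. ATP5F1EP2 had 36.6 ± 0.283 CPM in WT, 31.7 ± 2.03 in G245S and 30.6 ± 2.25 in R273H (SD, n = 3 dishes each). It fell as ATP5F1E did, by 0.20 on the log2 scale (adjusted p = 0.010) in G245S and, in R273H, by 0.26 (adjusted p = 0.00083), and since the sequences overlap the rows are not independent. With pseudogene counts added, ATP5F1E was at -0.13 in G245S and -0.15 in R273H, both called. ATP5PO shares 67.2% of its 30-nt windows with other annotated genes, 412 of them with ENSG00000249209, a protein-coding gene that spans it on the same strand, and ATP5PB shares 50.9%, of which 247 windows lie in ENSG00000260747. ENSG00000260747 rose in both mutants (0.44, adjusted p = 5.2e-05, and 0.34, adjusted p = 0.00072) from a level of 17.0 CPM. Adding the counts of every gene that shares windows lost none of the 5 calls. The snoRNA gene SNORD59A (chr12:56645027-56645101) lies within the span of ATP5F1B on the same strand. On the other strand, ATP5F1E overlaps TUBB1, ATP5PB overlaps WDR77 and ATP5PD overlaps KCTD2 and RN7SL573P. ATP5PF overlaps JAM2 and GABPA there, and ATP5PO overlaps LINC00649. Whether the counting used strand is not given in the sources used here.

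The remaining ATP synthase genes encode the membrane part, including the rotor's c-ring and subunit a. Of 10 such genes, 4 fell and 0 rose in G245S, and 8 fell and 0 rose in R273H, with median log2 fold changes of -0.067 and -0.12 beside -0.00069 and -0.0024 over all genes tested. Over all genes tested, 24.7% were called in G245S and 28.8% in R273H. In the highest of 10 bins by mean count, which holds all of these genes but MT-ATP8, 53.9% and 59.3% were called. No member rose at an unadjusted p under 0.05 or by DESeq2 (0 in either mutant). With the length and GC trends removed the counts of the 10 genes were 0 lower and 3 higher in G245S (ATP5MC1, ATP5MC3 and ATP5MK), and 4 lower (ATP5MC2, ATP5ME, MT-ATP6 and MT-ATP8) and 1 higher in R273H (ATP5MK). Of all genes tested, 27.4% and 30.0% were then called. ATP5ME, the small subunit e, fell most, with log2 fold changes of -0.16 (G245S, adjusted p = 0.00037) and -0.21 (R273H, adjusted p = 5.65e-06). ATP5MF and ATP5MG, small subunits beside it, fell in both mutants, to between -0.13 and -0.093. MT-ATP6, the mitochondrially encoded subunit a that forms the proton path, fell in R273H (-0.19, adjusted p = 6.45e-06) and had -0.052 in G245S (adjusted p = 0.18). MT-ATP8, encoded beside it, had -0.21 in R273H (adjusted p = 0.00075) and -0.078 in G245S (adjusted p = 0.23). Both proteins are made inside mitochondria, and whether counts of such genes are footprints like those of nuclear genes was not tested. A lower share was not particular to ATP synthase genes. All mitochondrially encoded protein genes together took 0.336% to 0.343% of counts in WT dishes, 0.316% to 0.322% in G245S and 0.303% to 0.309% in R273H. Of the 3 genes for the same c subunit, ATP5MC2 fell in both mutants (-0.079 and -0.18), ATP5MC1 fell in R273H (-0.080, adjusted p = 0.030), and ATP5MC3, the most abundant at 589 CPM in WT, was not called in either. ATP5MJ fell in R273H (-0.077, adjusted p = 0.034) and ATP5MK was not called.

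Assembly factors moved in both directions. Of 9 genes for assembly and regulation, 4 fell and 3 rose in G245S, and 3 fell and 3 rose in R273H, where 24.7% and 28.8% of all genes tested were called. With both trends removed the counts were 3 and 3, then 2 and 3. TMEM70, which helps the c-ring join the complex, rose by 0.15 on the log2 scale in G245S cells (adjusted p = 0.0041) and by 0.28 in R273H cells (adjusted p = 1.0e-06). OXA1L, an insertase of the inner membrane, and ATP23, a metalloprotease named for its role in ATP synthase assembly, also rose in both mutants (0.13 to 0.30). ATPAF1, the chaperone of beta, had log2 fold changes of -0.016 (95% interval -0.094 to 0.062, adjusted p = 0.81) and -0.013 (-0.089 to 0.064, adjusted p = 0.84). ATPAF2, the chaperone of alpha, fell in G245S (-0.29, adjusted p = 0.0074) from 17.6 CPM. ATP5IF1, which inhibits ATP hydrolysis by the head, fell in both mutants (-0.15, adjusted p = 0.000555, and -0.16, adjusted p = 0.00017), as did TMEM242 and FMC1. With both trends removed ATP5IF1 was not called in either mutant (-0.052 and -0.042), while the rises of TMEM70, OXA1L and ATP23 and the falls of TMEM242 and FMC1 were called in both. DMAC2L was not called. SLC25A3, the phosphate carrier that supplies the enzyme, rose in both mutants (0.10, adjusted p = 0.0022, and 0.099, adjusted p = 0.0028). Among the ADP/ATP carriers, SLC25A4 (-0.16, adjusted p = 0.0050) and SLC25A6 (-0.096, adjusted p = 0.020) fell in R273H, and SLC25A5 was not called in either. With both trends removed SLC25A3 was called higher in both mutants, SLC25A4 stayed called in R273H (-0.11, adjusted p = 0.036), SLC25A5 was called higher in G245S (0.062, adjusted p = 0.023) and SLC25A6 was not called.

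Other complexes are given for scale, beside the 24.7% (G245S) and 28.8% (R273H) of all genes that were called against WT, or 27.4% and 30.0% with both trends removed. The share rose with mean count, to 53.9% and 59.3% in the highest of 10 bins before that removal. All complex III and IV genes listed lie in that bin. The V1 genes lie there too, except ATP6V1B2, ATP6V1C1 and ATP6V1D in the next bin (42.1% and 48.1% called). Of 9 nuclear complex III genes, 3 fell and 3 rose in G245S, and 5 fell and 2 rose in R273H (0 and 4, then 1 and 4, with both trends removed). In R273H values ran from UQCR10 (-0.21) to UQCRC2 (0.22) around a median of -0.086. Of 11 nuclear complex IV genes, 8 fell in G245S and 10 in R273H and 0 rose in either by edgeR, by DESeq2 or at an unadjusted p under 0.05. With both trends removed, 1 fell and 2 rose in G245S, and 4 fell and 1 rose in R273H. The R273H values ran from COX6B1 (-0.30) to COX5A (0.017) around a median of -0.14 before that removal. The V1 head of the vacuolar ATPase is built on the same plan as F1, and of its 8 genes 6 fell in G245S and 4 in R273H (5 and 3 with both trends removed), with a range in R273H from ATP6V1F (-0.21) to ATP6V1A (0.047), which encodes its catalytic subunit. No member rose in either mutant by edgeR, by DESeq2 or at an unadjusted p under 0.05 (0 of 8). The ATP6V1A log2 fold change of 0.029 in G245S (95% interval -0.022 to 0.080, adjusted p = 0.44) stood beside 0.12 (0.082 to 0.17) for ATP5F1B.

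**Figure D5:**
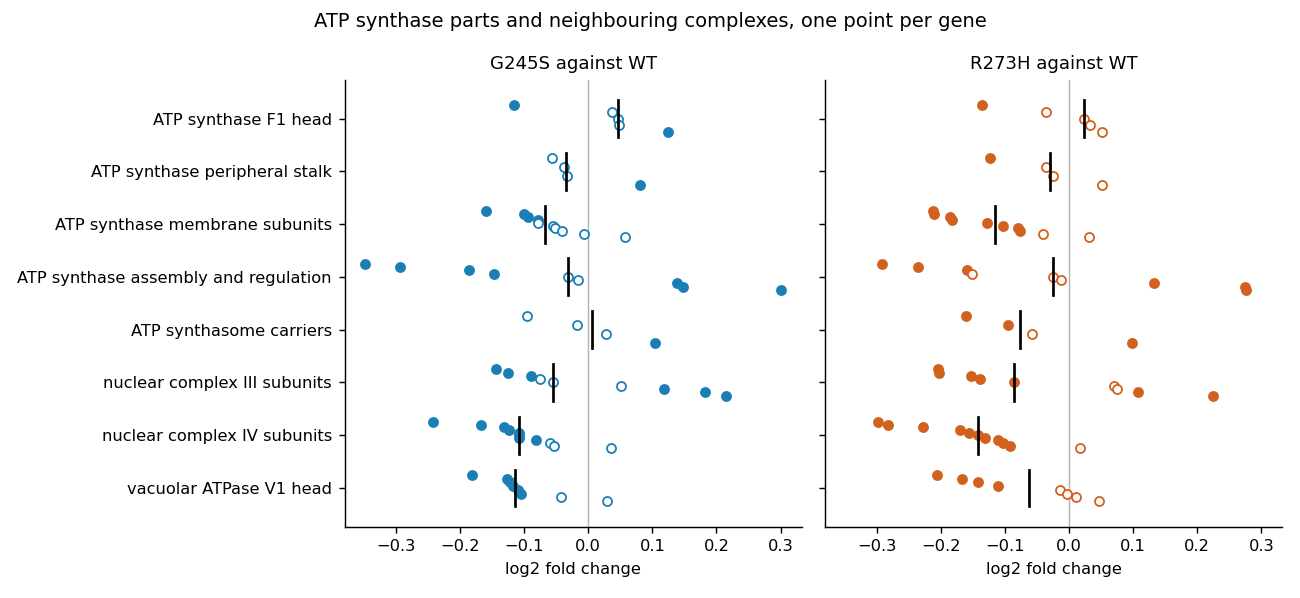
Log2 fold change of every gene in 8 groups for each mutant against WT, with one point per gene (filled where the adjusted p was under 0.05) and the group median as a black line. The membrane subunits and complex IV lie mostly left of 0, and the F1 head has 1 gene far to the left, ATP5F1E.

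The 9 genes did not follow one pattern over the 9 libraries. Pearson's r of each gene with the mean of all 9, as centered log2 CPM, lay between 0.323 (ATP5PF) and 0.632 (ATP5F1C), although each gene is part of that mean. Among the 12647 genes whose mean count reached 100, those most like the mean were U2 (ENSG00000276596, r = 0.985), RNU2-1 (r = 0.976), SERBP1 (r = 0.972) and U2 genes ENSG00000274062 (r = 0.970) and ENSG00000274432 (r = 0.964). The U2 small nuclear RNA genes encode no protein, so their counts are not taken as footprints of translation. They are near-identical copies, so their separate counts are uncertain. These values describe 9 libraries that share their pools, and the genes named were picked as the highest of 12647.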

How the data were processed

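Per the labels and the study's methods, the authors trimmed adapters with Trim Galore and cutadapt, used UMI-tools where molecular barcodes applied, removed rRNA reads, and aligned reads to GRCh38 with STAR. Values in the deposited table are expected counts, that is, estimates of the footprints of each gene before any scaling. The counting tool, annotation release, strand setting and any restriction to coding regions are not given in the sources used here. Between 61.5% and 63.7% of nonzero values were not whole.

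Counts were rounded and tested in one fit of 9 libraries (3 groups of 3 dishes, 6 residual degrees of freedom) with edgeR 4.0.16 in R 4.3.3, using TMM factors, filterByExpr defaults, glmQLFit with robust estimation and two-sided glmQLFTest. A call is an adjusted p (Benjamini-Hochberg, 19820 genes) under 0.05. SE and 95% intervals come from the fit. The biological coefficient of variation was 2.58%. DESeq2 1.42.0, other scalings and filters, a dish block, offsets from natural splines of coding length and GC content fitted in each library over 10886 protein-coding genes, summed pseudogene counts and leaving out each dish were alternatives. Summing all window-sharing genes, leaving out dish 3 of every group and the longest coding region were added after the data were seen. Coding lengths, exons, coordinates and sequences come from the Ensembl canonical transcripts of GENCODE v44 (GRCh38), and 30-nt windows were matched to all annotated transcripts. The test was checked on simulated counts. The members and gene lists were chosen with earlier results of these data known. Named genes are the 9 members, all genes of the ATP synthase membrane, assembly and carrier lists, the lowest and highest gene in R273H of the comparison complexes, and the 5 genes most like the members' mean. The level of the p53 construct is not reported here.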

Additional observations from a re-analysis of the deposited data

Results flagged for a closer look

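None of the 9 genes differed between G245S and R273H past the threshold of edgeR's quasi-likelihood test, as described in the report. Among the other ATP synthase genes, the test of the difference between the mutants passed for 4. These were 3 of 10 membrane genes and 1 of 9 assembly and regulation genes, with 0 of 4 carriers. That test called 2.59% of all genes tested. It called 10.1% in the highest of 10 bins by mean count, and 4.54% in the next bin, where TMEM70 lies. ATP5MC1, one of the genes for the c subunit, was higher in G245S than in R273H by 0.14 on the log2 scale (adjusted p = 0.0048), with 295, 298 and 282 CPM in the G245S dishes and 263, 272 and 261 CPM in R273H. ATP5MC2, another c subunit gene, was higher by 0.10 (adjusted p = 0.048) and was not called with length and GC trends removed (0.073, adjusted p = 0.076). MT-ATP6 was higher by 0.13 (adjusted p = 0.0058), with 229, 222 and 224 CPM in G245S and 210, 204 and 202 CPM in R273H, and was also called with the trends removed (0.15). All mitochondrially encoded protein genes together also took a larger share of counts in G245S (0.316% to 0.322%) than in R273H (0.303% to 0.309%). Whether counts of mitochondrially encoded genes are footprints like those of nuclear genes was not tested. TMEM70 was lower in G245S than in R273H by -0.13 (adjusted p = 0.049), with dishes at 76.6, 74.1 and 77.7 CPM against 82.5, 84.4 and 82.8 CPM, and was also called with the trends removed (-0.12). For ATP5MK every G245S dish lay below the WT mean of 201 CPM and every R273H dish above it. All of these mutant dishes lay within the range of the WT dishes (190.6 to 214.6 CPM). The log2 difference between the mutants was -0.071 (95% interval -0.14 to -0.0014, adjusted p = 0.31), and the difference in direction was seen in the dish values and not tested apart from this. With the trends removed ATP5MK was called higher in both mutants (0.11 in G245S and 0.12 in R273H). The difference between the mutants was then -0.016 (adjusted p = 0.82). Depending on the dish left out, 1 to 3 of the 10 membrane genes were called between the mutants.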

How the results depend on the processing

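Of the 5 calls among the 9 genes, ATP5F1B in G245S and ATP5PD in R273H were made in all 20 alternatives, ATP5F1E in 19 in each mutant, and ATP5PB in G245S in 16. Leaving out 1 dish in turn gave 2 to 5 members called in G245S, 2 to 4 in R273H and 0 to 1 between the mutants, with the highest counts of 5 and 4 without WT dish 3. Without dish 3 of all groups the counts were 5, 4 and 2, the last being ATP5F1B and ATP5PB. The share of all genes called with dishes left out is not given here, so these counts are not set beside one. Between the mutants 1 member, ATP5F1B, was called by DESeq2, in a fit of only the 6 libraries compared, with the dish block, with the length and GC trends removed, and with pseudogene or all window-sharing counts added. Removing the trends turned the sign of ATP5F1E (0.012), ATP5PD (0.0059), ATP5PF (0.054) and ATP5PO (0.010) in G245S, of ATP5F1D (0.077), ATP5PF (0.036) and ATP5PO (0.0030) in R273H, and of ATP5F1D (-0.0023), ATP5PF (0.019) and ATP5PO (0.0073) between the mutants. ATP5PO between the mutants, near 0 in the main analysis (-0.0020), also turned with pseudogene counts added (6.3e-05) and without dish 3 of all groups (0.026), and over single dishes left out it ran from -0.015 to 0.016, as ATP5PF did from -0.026 to 0.0068. Of 540 values over members, contrasts and alternatives, 491 kept their direction and side of the threshold. Dish numbers were not taken to pair the samples, since no label ties them and not every correlation passed 0.1. Correlations of dish deviations were 0.044 to 0.23 for the same number and -0.19 to 0.059 for different numbers, and 17 of 18 dish comparisons were highest for the own number, a hint from the data of something shared by dishes of 1 number. With the dish number as a replicate block the members called were 4, 3 and 1, and 5779, 6547 and 1262 genes were called in all in place of 4900, 5707 and 513. The alternative of RefSeq protein lengths was not run, since those sequences were not used here. SEs were 0.021 to 0.031 on the log2 scale, the smallest difference called among the 9 genes was 0.081, and differences up to 0.074 were not called.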
